A study of Mus musculus with 2 samples.

Results

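Kinesins are motor proteins that use ATP to walk along microtubules or to take them apart, and the family is sorted into numbered subfamilies by the sequence of the motor domain. In dividing cells they build the spindle, move chromosomes and set the cleavage plane. In the testis they also serve meiosis in spermatocytes, transport along the growing sperm tail, and the reshaping of the spermatid head. The kinesin genes were taken as protein-coding mouse genes with a Kif number symbol, plus Kifc1, Kifc2, Kifc3 and Kifc5b. The rule found 42 genes in 13 subfamilies, out of 44002 rows in the deposited table. Of these, 39 reached a floor of 1 CPM (reads scaled to a common library size) in at least 1 library; Kif28 and Kifc1 were listed at 0 in both libraries, and Kif12 carried no value.

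The 2 libraries came from whole testis of BALB/c mice on postnatal day 45: 1 control and 1 from mice exposed to bisphenol A (BPA), a monomer of plastics that can act on estrogen receptors. The control was identified by a title without any exposure. Each library was made from 3 samples mixed together, so variation among mice of a group is not visible and no test between conditions was possible. How much BPA was given, by which route and for how long is not stated in the labels used here. Meiosis, in which several of these motors act, is 1 of the subjects in the title of the series.

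The listed values stood for 41711330 reads in the control library and 45162887 in the BPA library. The tissue label was checked on marker genes: all 30 markers of spermatocytes, round spermatids and elongating spermatids reached 1 CPM. None was 2-fold apart, where 3.28% of all genes at the floor were. At that share a count of 0 does not stand out. Summed markers stood at 4638 CPM in the control library and 4857 CPM in the BPA library for spermatocytes, 1188 and 1152 CPM for round spermatids, and 20503 and 21752 CPM for elongating spermatids. Sertoli cell markers summed to 888 and 1026 CPM, and Inhba was listed at 0 in both libraries. All 9 at the floor had a log2 ratio above 0, where 9875 of all 19389 genes at the floor did. Adipocyte markers summed to 80.9 and 25.9 CPM, and none had a log2 ratio above 0. Of the 7, 5 were lower in the BPA library by 2-fold or more, where 1.95% of all genes at the floor were. The other 2 were nearly level: Adipoq at 17.2 and 15.4 CPM and Plin1 at 4.88 and 4.47 CPM. No marker of spermatogonia, Leydig, peritubular, macrophage or endothelial cells was 2-fold apart, and the peritubular marker Tagln was listed at 0 in both libraries. The part of these cell types in the kinesin values was not tested. In bulk tissue, fewer cells of a type and less RNA per cell cannot be told apart.

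Most kinesin transcripts stood at nearly the same level in both libraries. By log2 ratio in size, the members furthest from 0 were Kif11 and Kif3c, both at low level, followed by Kif9 at a high level. The family summed to 3719 CPM in the control library and 3859 CPM in the BPA library. Its median log2 ratio of BPA over control, computed with 0.1 CPM added to each value, was 0.04, against 0.00 for all 19389 genes at the floor. By a rule of 2-fold or more, 0 of 39 kinesins were higher in the BPA library, where 1.32% of all genes were, and 1 of 39 was lower, where 1.95% of all genes were. In all, 24 of 39 members lay within 1.1-fold and 33 within 1.25-fold, against 48.8% and 75.7% of all genes at the floor. The authors' deposited table calls none of the 41 members that have a q-value there. A q-value under 0.005 was held by only 0.109% of 29279 genes in it, so a count of 0 calls does not set the kinesins apart.

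**Figure D1:**
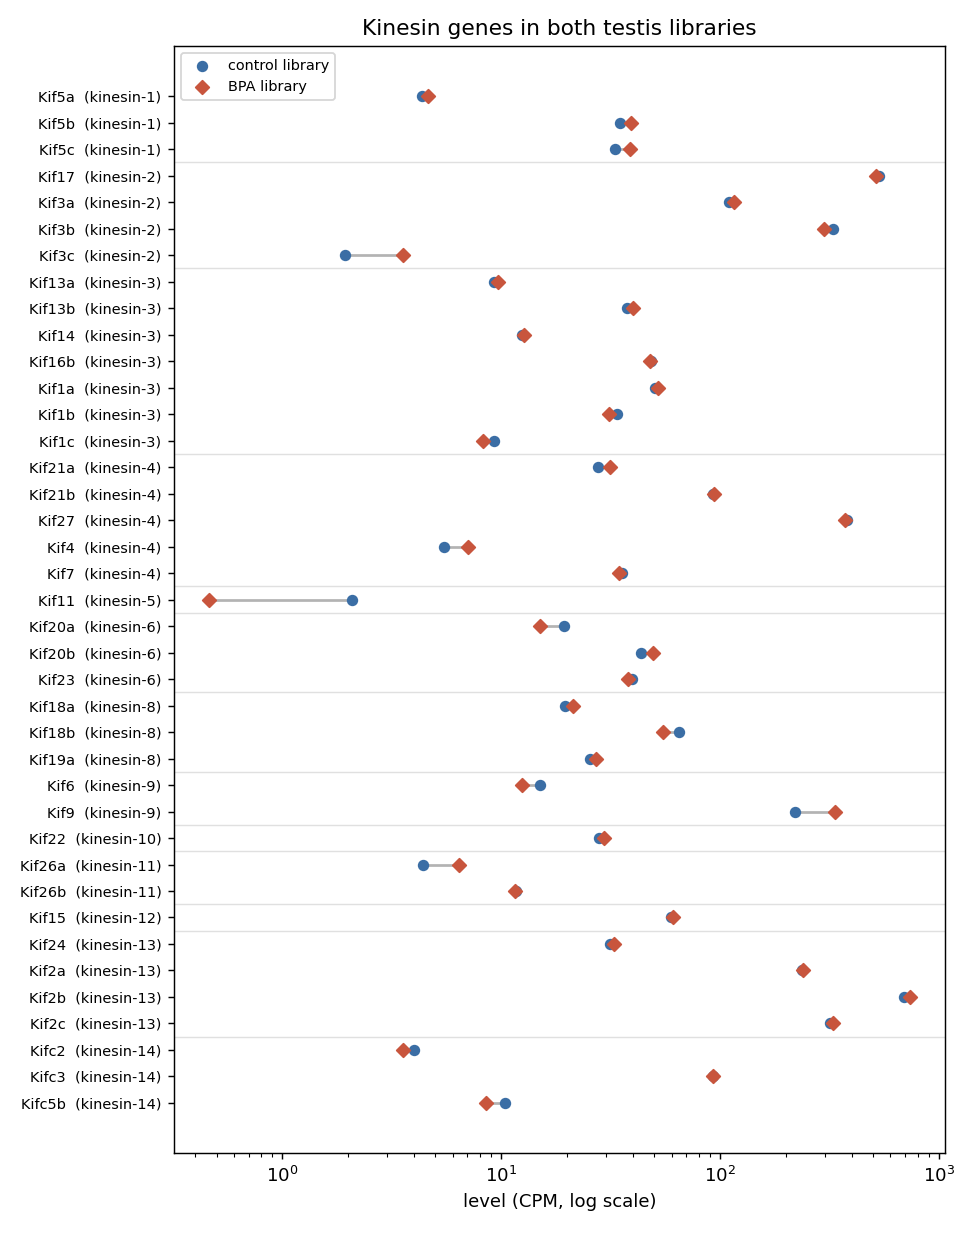
Level of the 39 kinesin genes at the floor (CPM, log axis) in the control library (circles) and the BPA library (diamonds), 1 pooled library each, ordered by subfamily. The symbols nearly coincide for most genes; Kif11 has the widest gap, from 2.08 CPM in the control library to 0.463 CPM in the BPA library.

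Levels of different genes were compared only per length, as CPM per kilobase (kb) of annotated exon. On that scale the family was uneven in the same way in both libraries. The kinesin-13 subfamily held 48.1% of the summed level per length in the control library and 48.4% in the BPA library, kinesin-2 held 23.3% and 21.6%, and kinesin-4 held 10.6% and 10.1%. Kinesin-9 held 6.10% in the control library and 8.70% in the BPA library. The 5 genes with the highest mean per length (Kif2b, Kif17, Kif2c, Kif27 and Kif9) made up 70.6% of the control sum and 72.3% of the BPA sum. Places in the order moved by at most 4 between the libraries, which was the shift of Kif4, and 13 of 39 members held the same place.

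**Figure D2:**
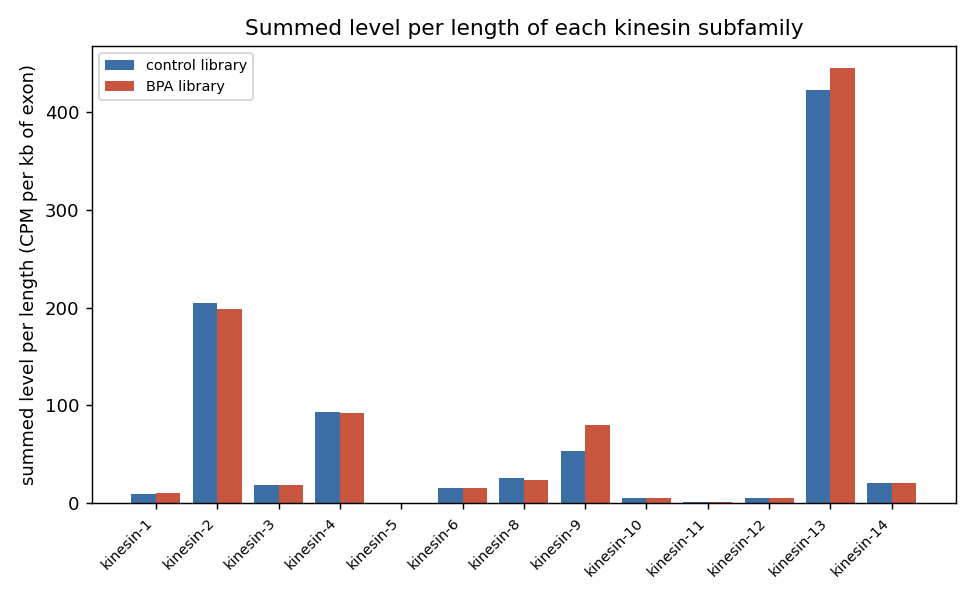
Summed level per length of each kinesin subfamily (CPM per kb of exon, bars from 0) in the control and BPA libraries, 1 pooled library each and therefore without error bars. Kinesin-13 is the tallest pair at 422 and 445 CPM per kb, and kinesin-9 shows 53.6 and 80.0 CPM per kb.

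Kinesin-13 proteins do not walk: they grip microtubule ends and take them apart, which in mitosis corrects faulty attachments at the kinetochore. Kif2b was the most abundant kinesin per length, at 308 CPM per kb in the control library and 328 CPM per kb in the BPA library. Before length was considered, it stood at 692 CPM in the control library and 736 CPM in the BPA library, a ratio of 1.06 (95% counting interval 1.05 to 1.08). In the reference annotation its transcript forms a single exon of 2244 bases. Kif2c, the centromere depolymerase also called MCAK, stood at 319 and 329 CPM, and Kif2a, the form found at spindle poles and in neurons, at 237 and 239 CPM. Kif24, which restrains cilium growth at the mother centriole, stood at 31.5 and 32.8 CPM. All 4 members of the subfamily had log2 ratios between 0.01 and 0.09. Counting intervals here and below are exact binomial (Clopper-Pearson) intervals of the reads. They cover counting error only: reads copied by PCR are not separate molecules, and differences among mice are not in them.

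Kinesin-2 motors carry intraflagellar transport, the traffic of building material along cilia and sperm tails. Kif17, a homodimeric member known in male germ cells for moving the CREM coactivator Fhl5 between nucleus and cytoplasm, ranked second per length in both libraries. It stood at 529.6 CPM in the control library and 516 CPM in the BPA library, a log2 ratio of -0.04. Kif3b stood at 326 and 298 CPM, and its partner Kif3a at 110.2 and 116 CPM. Kif3c, an alternative partner of Kif3a best known in neurons, had the largest log2 ratio of the subfamily, 0.85, on low levels. It stood at 1.94 CPM (81 reads) in the control library and 3.57 CPM (162 reads) in the BPA library, a ratio of 1.84 (1.40 to 2.44). Kif3c stayed under the 2-fold rule, and 40.7% of its exonic bases are shared with other annotated genes, among them 1110002L01Rik, so the source of its reads is uncertain.

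The promoter of Kif17 is shown because Kif17 is the most abundant walking kinesin per length here and its window holds a full cAMP response element, the site that CREM-type factors bind. The 250 bases before the RefSeq start, on GRCm38 at chr4:138262001-138262250, plus strand, come from the RefSeq promoter table (GRCm38.p6), and capitals mark TGACGTCA. In the GENCODE annotation Kif17 starts earlier, at 138250435, so the window lies inside the gene there.
Kif17: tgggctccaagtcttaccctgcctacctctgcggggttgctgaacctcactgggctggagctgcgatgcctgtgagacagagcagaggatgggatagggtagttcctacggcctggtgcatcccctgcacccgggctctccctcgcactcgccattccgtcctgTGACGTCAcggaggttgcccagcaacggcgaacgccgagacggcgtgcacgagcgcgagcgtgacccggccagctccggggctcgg
Among 37 windows of 33 kinesin genes in that table, TGACGTCA was present in 2, those of Kif17 and Kif5c, which is 5.41% against 1.55% of all 32851 windows. A match describes letters in a window and does not show that a factor binds there.

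Kinesin-4 members serve chromosomes, cilia and axons. Kif27, related to the fly protein Costal-2 and needed for motile cilia, was the most abundant of them, at 378 CPM in the control library and 372 CPM in the BPA library, with 6.4% of its exonic bases shared with other genes. Kif7, the regulator of Hedgehog signalling at the cilium tip, stood at 35.6 and 34.4 CPM. Kif21b stood at 92.3 and 93.4 CPM and Kif21a at 27.7 and 31.5 CPM; both slow microtubule growth. Kif4, a chromosome-bound motor of the spindle midzone, had the largest log2 ratio of the subfamily, 0.36, at 5.45 CPM (228 reads) and 7.05 CPM (320 reads). No member was 2-fold apart.

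Kinesin-9 holds the largest log2 ratio in size among the 8 kinesins with a mean of 100 CPM or more. Kif9, a motor of the central apparatus of motile cilia and sperm tails, stood at 219.8 CPM (9186 reads) in the control library and 335 CPM (15200 reads) in the BPA library. The ratio was 1.52 (1.48 to 1.56), a log2 ratio of 0.61, and thus under the 2-fold rule. By level per length Kif9 took place 6 in the control library and place 3 in the BPA library, or places 5 and 4 when the length of the longest transcript was used. The other member, Kif6, known for cilia of the brain ventricles, stood at 15.0 CPM in the control library and 12.4 CPM in the BPA library. Both members of the subfamily therefore lay on opposite sides of 0, with a log2 ratio of -0.26 for Kif6.

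In the authors' deposited table Kif9 has a log2 fold change of 0.61 and a q-value of 0.000798, the only q-value under 0.005 among 41 kinesins with one. Such a q-value was held by 32 of 29279 genes (0.109%) in the authors' deposited table, and 20 (0.0683%) had it with a higher value in the BPA library. That q-value compares 2 pooled libraries and not replicates. Kif9 is not called in the authors' deposited table, and its fold change is under 2. Only 3 other genes shared that combination in the authors' deposited table: the phosphatase inhibitor gene Ppp1r11 and the sperm chromatin genes Prm1 and Tnp2. A mean of at least 200 CPM, a limit chosen after the values were seen, was reached by 1104 genes. Of these, 2 had a log2 ratio at least as large as that of Kif9, Kif9 itself included. Kif9 was singled out by these same values, so the count is no test of it.

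No exonic base of Kif9 overlaps another annotated gene, and none of its 50-base words occurs in a gene elsewhere. Of 35 other genes at the floor within 1 Mb, none was 2-fold apart, where 3.28% of all genes at the floor were. That share is too small for this count to stand out. The window before its start in the GENCODE annotation (110476958) is shown as the sequence of the member that stood apart at high level. On GRCm38 it lies at chr9:110476708-110476957, plus strand, and capitals mark TATAAA on the opposite strand (TTTATA). The RefSeq gene begins at 110476738, inside this window and before the marked letters.
Kif9: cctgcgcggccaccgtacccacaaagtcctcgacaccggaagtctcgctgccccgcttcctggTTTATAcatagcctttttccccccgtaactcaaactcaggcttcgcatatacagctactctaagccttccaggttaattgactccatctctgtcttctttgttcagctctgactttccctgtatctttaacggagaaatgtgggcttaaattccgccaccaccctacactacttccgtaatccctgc
TATAAA on either strand was found in 13.5% of the kinesin windows, among them 2 overlapping windows of Kif9, and in 12.4% of all windows.

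Kinesin-5 has a single mouse gene, Kif11, whose motor slides spindle microtubules apart so that the poles separate. Kif11 was the only kinesin past the 2-fold rule. It stood at 2.08 CPM (87 reads) in the control library and 0.463 CPM (21 reads) in the BPA library, 4.5-fold lower (2.77 to 7.63). Its log2 ratio was -1.95, or -1.07 with a pseudocount of 1 CPM, and with a floor of 4 CPM Kif11 left the comparison. Per length it took place 38 of 39 in the control library and place 39 in the BPA library, at 0.279 CPM per kb in the control library and 0.0620 CPM per kb in the BPA library. The BPA value is under the listing limit of 1 CPM and was recovered from the authors' deposited fold change; the authors' deposited table gives Kif11 a q-value of 0.99996. Kif11 thus reached the floor in the control library only. A mean between 1 and 2 CPM, a range chosen after the values were seen, was held by 2716 genes. Of these, 16 had a log2 ratio as low as that of Kif11 (-1.95) or lower, Kif11 included. Kif11 was singled out by these same values, so the count is no test of it.

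On GRCm38 Kif11 spans chromosome 19 from 37376382 to 37421863. Of 16 other genes at the floor within 1 Mb, 2 were higher in the BPA library by 2-fold or more, and none was lower. Over all genes at the floor, 1.32% were higher by that rule. Cyp26a1, an enzyme that clears retinoic acid, stood at 0.694 CPM (29 reads) in the control library and 1.63 CPM (74 reads) in the BPA library. The other, 1700122C19Rik, stood at 0.694 CPM (29 reads) and 1.79 CPM (81 reads). Both reached the floor in the BPA library only. Ide, the insulin-degrading enzyme gene in that window, stood at 61.9 CPM in the control library and 110.4 CPM in the BPA library, a ratio of 1.78 (1.70 to 1.87). Cep55, a midbody protein gene in the same window, stood at 30.2 and 34.4 CPM. Whether this stretch of the chromosome plays a part in the value of Kif11 was not tested.

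The Kif11 window is shown because it holds motifs known from promoters of genes switched on for cell division, though neither is particular to such genes. It lies on GRCm38 at chr19:37376132-37376381, plus strand, and capitals mark CCAAT (here as ATTGG on the opposite strand) and TTTGAA (here as TTCAAA), the latter known as the cell cycle homology region.
Kif11: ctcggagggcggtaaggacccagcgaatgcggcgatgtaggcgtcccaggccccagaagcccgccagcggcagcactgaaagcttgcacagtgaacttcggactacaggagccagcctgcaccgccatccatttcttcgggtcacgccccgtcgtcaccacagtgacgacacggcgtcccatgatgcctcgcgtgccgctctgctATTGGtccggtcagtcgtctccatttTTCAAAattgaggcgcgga
On either strand, CCAAT was found in 45.9% of the kinesin windows and 33.8% of all windows, and TTTGAA in 21.6% and 16.0%. Windows of Kif14, Kif22, Kif26b and Kif27 also held both motifs, though those of Kif14 and Kif27 lie inside the annotated gene and not before it. The share of all windows that hold both motifs was not computed.

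**Figure D3:**
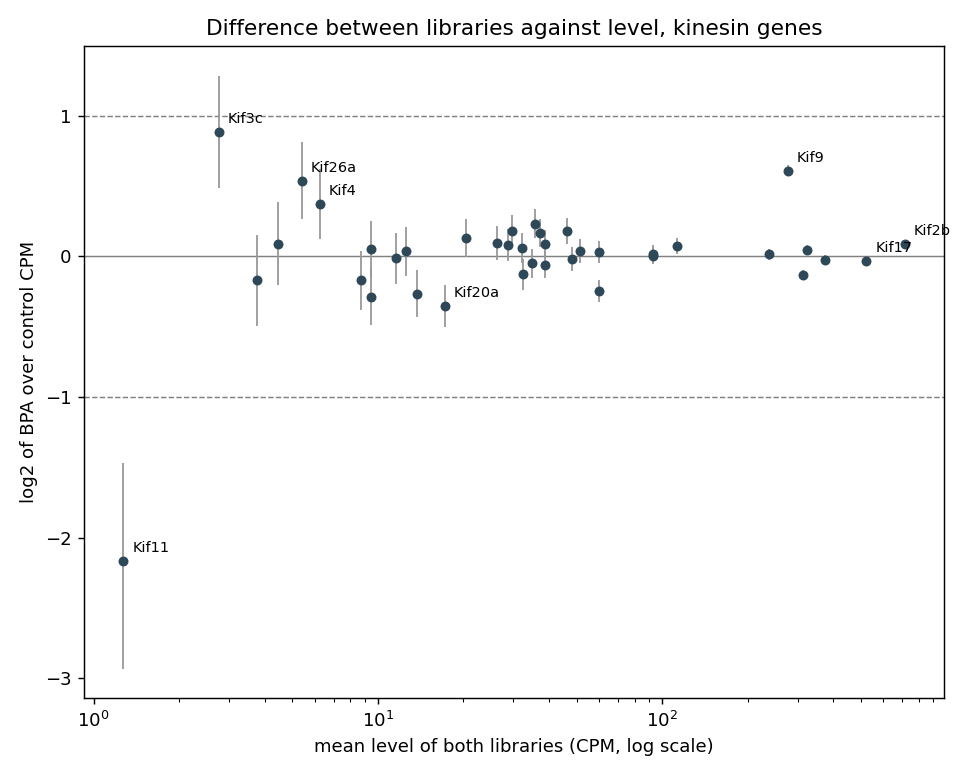
Log2 ratio of BPA over control CPM (vertical axis, without the pseudocount) against the mean level of both libraries (CPM, log axis) for 39 kinesin genes; vertical lines are 95% counting intervals and dashed lines mark 2-fold. Kif11 lies below the lower dashed line, Kif9 stands above its neighbours in level at a ratio of 1.52, and the widest intervals are at the lowest levels.

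Kinesin-12, kinesin-10 and kinesin-6 also act in cell division, and no member of them was 2-fold apart. Kif15, which can stand in for Kif11 in holding the spindle open, was at 59.5 CPM in the control library and 60.7 CPM in the BPA library, a ratio of 1.02 (0.966 to 1.08). Kif22, a motor on chromosome arms, was at 27.9 and 29.6 CPM. In kinesin-6, which builds the midzone and completes cytokinesis, Kif20b had the highest level per length of exon and stood at 43.6 and 49.3 CPM; per length of the longest transcript Kif23 was above it, at 11.7 against 7.83 CPM per kb in the control library. Kif23, the motor of centralspindlin and of the bridges between germ cells, was at 39.6 and 38.0 CPM. Kif20a had the largest difference of that subfamily, at 19.3 and 15.1 CPM, a ratio of 0.784 (0.707 to 0.869), and 29.3% of its exonic bases are shared with Cdc23.

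Kinesin-8 motors trim the plus ends of microtubules. Kif18b, which acts on astral microtubules, stood at 65.0 CPM in the control library and 54.8 CPM in the BPA library, a ratio of 0.843 (0.798 to 0.890), and was the most abundant of them per length. Kif18a, required for chromosome alignment and for male germ cell development, stood at 19.5 and 21.3 CPM, and Kif19a, which limits the length of motile cilia, at 25.5 and 27.2 CPM. The 3 members thus spread on both sides of 0, from a log2 ratio of -0.25 to 0.13.

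Kinesin-1 and kinesin-3 carry organelles and vesicles, and no member was 2-fold apart. In kinesin-1, the conventional kinesin, Kif5c stood at 32.9 CPM in the control library and 38.6 CPM in the BPA library, a ratio of 1.17 (1.09 to 1.26). Kif5b was at 34.9 and 39.2 CPM and Kif5a, the neuronal form, at 4.33 and 4.61 CPM. All 3 log2 ratios thus lay above 0, from 0.09 to 0.23, where those of 9875 of all 19389 genes at the floor did. In kinesin-3, Kif1a, a carrier of synaptic vesicle precursors in neurons, had the highest level per length of exon and stood at 50.6 and 52.0 CPM; per length of the longest transcript Kif16b was above it, at 7.57 against 6.17 CPM per kb in the control library. Kif1c had the largest log2 ratio in size, -0.17, at 9.26 and 8.22 CPM, with a counting interval of the ratio of 0.768 to 1.03. Kif16b, Kif13b, Kif1b, Kif14 and Kif13a had log2 ratios from -0.13 to 0.09, and Kif28, the remaining member, was listed at 0 in both libraries.

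Kinesin-11 members lack the usual ATPase activity and act in signalling. Kif26a, a regulator of enteric nerve growth, stood at 4.40 CPM (184 reads) in the control library and 6.39 CPM (290 reads) in the BPA library, a ratio of 1.45 (1.20 to 1.76). Kif26b stood at 11.7 and 11.5 CPM and had the higher level per length in the control library. Across the family, 19 of 39 counting intervals of the ratio left out 1, 11 above and 8 below, where 43.1% of all genes at the floor had such an interval.

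Kinesin-14 motors walk toward the minus end and focus spindle poles. Kifc3, which acts at cell junctions and the Golgi, was the most abundant, at 92.8 CPM in the control library and 93.2 CPM in the BPA library, with 27.5% of its exonic bases shared with other genes. Kifc2 stood at 4.0 and 3.55 CPM. Kifc5b had the largest log2 ratio in size, -0.28, at 10.4 CPM (435 reads) and 8.53 CPM (387 reads). Kifc1, known for roles in the meiotic spindle and in acrosome formation, is its near copy on the same chromosome and was listed at 0 in both libraries.

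The values of Kifc1 and Kifc5b are uncertain because part of their sequence is the same. Their longest coding sequences in the GENCODE annotation of GRCm38 align over 2016 bases with 98.4% identity, 32 differing bases and a longest identical run of 268 bases. Of the 50-base words of Kifc1, 38.6% also occur in Kifc5b, and 36.6% of those of Kifc5b occur in Kifc1. Counting all other loci, the shares were 39.7% for Kifc1 and 37.4% for Kifc5b, so most words of each could tell them apart. Kifc1 has a deposited log2 fold change of 0.57, which takes reads under the listing limit of 1 CPM in both libraries. How the authors' counting treated reads that match both genes is not stated in the labels. The coding stretch where they differ most is shown, positions 24 to 83 of Kifc1 and 21 to 80 of Kifc5b counted from the first base of the start codon, with the 11 differing bases in capitals.
Kifc1: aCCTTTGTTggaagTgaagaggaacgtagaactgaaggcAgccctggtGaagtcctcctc
Kifc5b: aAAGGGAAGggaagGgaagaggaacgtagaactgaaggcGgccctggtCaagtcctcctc
Elsewhere in the family sharing was small: besides these genes, only Kif24 (5.62%) had 5% or more of its words in genes at other loci. Exons overlapped other genes by 5% or more in 8 members: Kif3c, Kif27, Kif20a, Kifc3 and Kif26b, and Kif7 (20.3%), Kif2a (19.2%) and Kif4 (15.1%). As no strand-marking step is described, the values of these 8 genes are uncertain to that extent.

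The median log2 ratio in size was larger at lower levels, among kinesins and among genes at the floor with a mean of 1 CPM or more. The part of read depth in this was not tested. Among 8 kinesins with a mean of 100 CPM or more, the median log2 ratio in size was 0.06, and it was 0.06 among all 2401 genes of that level. For 22 kinesins between 10 and 100 CPM it was 0.08, against 0.10 for 7578 genes. Between 1 and 10 CPM, 9 kinesins had a median of 0.28, against 0.24 for 8715 genes. Genes at the floor with a mean under 1 CPM are in none of these groups. At 1.5-fold or more, 3 of 39 members were apart, where 9.64% of all genes at the floor were. Kif9 and Kif3c were higher, 2 of 39 where 4.27% of all genes were, and Kif11 was lower, 1 of 39 where 5.37% were. At 4-fold or more with the pseudocount, 0 of 39 were apart, where 0.722% of all genes were, 0.438% lower and 0.284% higher. Kif9 was the only one of the 8 kinesins at 100 CPM or more to reach 1.5-fold, a difference that 0.50% of genes at that level reached.

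The genes around each kinesin were then read by the same rule. Of 39 members, 15 had at least 1 gene within 1 Mb that was 2-fold apart; over all members, 41 of 1028 neighbours (3.99%) were, against 3.28% of all genes at the floor. Kif1c on chromosome 11 had the most, 15 of 49, among them Zmynd15 (3.25 CPM in the control library and 45.9 CPM in the BPA library) and Chrne (17.2 and 0.992 CPM). Kif1c itself was not 2-fold apart. Kif26a on chromosome 12 had 8 of 47, among them the chromatin gene Mta1 at 3.92 and 31.0 CPM.

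**Figure D4:**
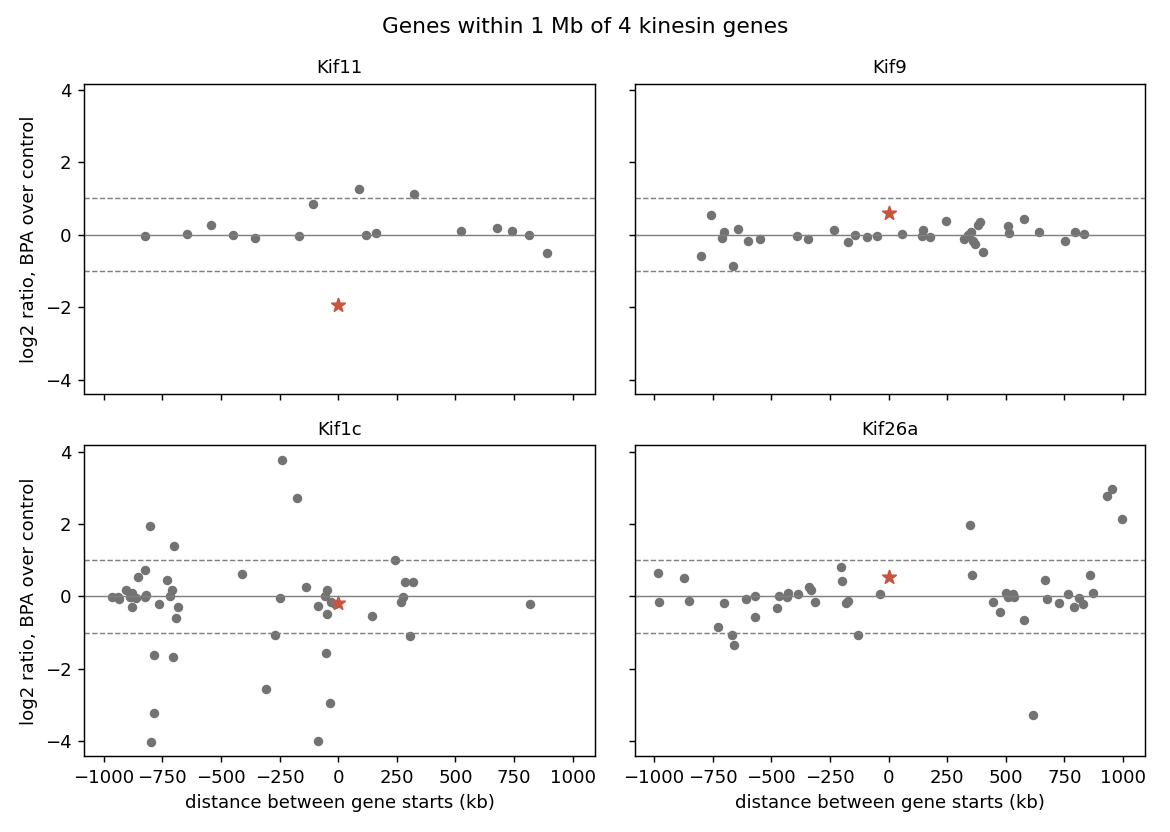
Log2 ratio of BPA over control (vertical axis, pseudocount 0.1 CPM) for genes at the floor within 1 Mb of Kif11, Kif9, Kif1c and Kif26a, against the distance between gene starts (kb, from the lowest coordinate of each gene); stars mark the kinesin gene and dashed lines 2-fold. No neighbour of Kif9 and 15 neighbours of Kif1c lie beyond the dashed lines, while Kif1c itself lies near 0.

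Genes that work with kinesins were read by the same 2-fold rule, past which 3.28% of all genes at the floor lay. That share corresponds to fewer than 1 gene in each list, so a count of 0 sets none of the lists apart. Among 22 kinesin light chains and cargo adaptors, 0 were higher and 0 lower, with a median log2 ratio of -0.06; Clstn1, a membrane protein that binds light chains, had the largest, at 15.6 CPM in the control library and 20.1 CPM in the BPA library. All 24 genes of intraflagellar transport, the cargo system of kinesin-2, lay within 2-fold with a median of -0.02. There Ift27 had the largest difference, at 29.1 and 24.5 CPM. The germ cell partners of Kif17, Kif9 and Klc3 (6 genes) also lay within 2-fold, with a median of -0.03; Fhl5 was at 143.9 and 166 CPM.

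Of 13 central spindle and chromosomal passenger genes, 0 were 2-fold apart, beside 3.28% of all genes, and the median was 0.03. Tex14, which keeps the bridges between germ cells open and works beside Kif23, was the nearest to it, at 14.7 CPM in the control library and 26.3 CPM in the BPA library, a ratio of 1.79 (1.62 to 1.98). Spindle assembly and kinetochore genes had a median of -0.04, and 16 of 17 reached the floor, the exception being Kifc1; Spc25, a subunit of the kinetochore's microtubule grip, was at 20.6 and 17.6 CPM. None of these 16 was 2-fold apart.

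Cytoplasmic dynein and dynactin, which move cargo the opposite way to most kinesins, had 26 of 27 genes at the floor, none 2-fold apart and a median of 0.05. The light chain gene Dynlt1b, at 55.5 and 83.5 CPM, had the largest ratio among them, 1.5 (1.43 to 1.58). Dynlt1b has near-identical copies in the mouse genome, so its value is uncertain. The manchette, the microtubule skirt that shapes the spermatid head, was represented by 20 genes with a median of 0.00 and none 2-fold apart. Clip2, a protein that tracks microtubule ends, stood at 4.90 and 3.53 CPM there.

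**Figure D5:**
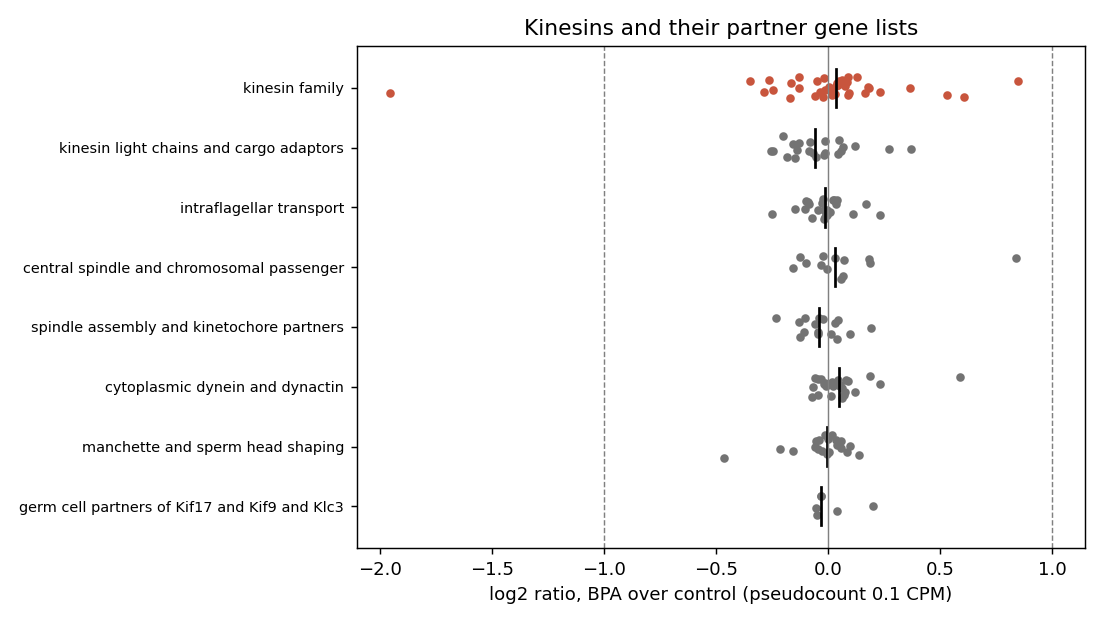
Log2 ratio of BPA over control (horizontal axis, pseudocount 0.1 CPM) for each gene at the floor in the kinesin family and 7 lists of partner genes; each point is a gene, black bars are medians and dashed lines mark 2-fold. The medians lie between -0.06 and 0.05, and Kif11 is the only point beyond a dashed line.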

How the data were processed

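Per the labels' protocols, poly(A) RNA was fragmented and primed with random hexamers; no strand-marking step is described. The submitters' processing notes name mm10, HTSeq 0.6.1 and HISAT2 2.0.4. For each gene the authors deposited CPM in both libraries, with their log2 fold change and its p-value and q-value; no source used here names the program behind the p-values. The file headers call the CPM columns read counts, but they sum to nearly the same total. Deposited CPM values under 1 are written as 0. All others are whole multiples of 1 step (0.0239 CPM control, 0.0220 CPM BPA), taken as 1 read. In 1404 genes the deposited log2 fold change gave the value written as 0, within 0.0016 of a whole read.

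After adding 0.1 CPM to both values, BPA was divided by control on a log2 scale for genes that reached 1 CPM in either library; the calculation was tested on simulated reads. No count model was fitted. Subfamilies follow textbook nomenclature. Symbols came from RefSeq (GRCm38.p6; 40269 of 41571 numeric IDs matched, all 42 kinesins), exons and words from GENCODE M21. All 37 kinesin windows were read as the table gives them. Some, among them those of Kif14, Kif27 and Kif2c, lie inside the annotated gene, and that of Kif17 lies inside the GENCODE gene. The start of 32 was found in a GENCODE transcript of the gene. Named are members at 2-fold or more and, in each subfamily, the highest level per length and the largest log2 ratio in size; in each partner list, likewise the largest log2 ratio. Other members were named after their values were seen. The members, lists and alternatives were chosen with earlier results of these data known. The positions of the motor in the proteins were not analysed here. Analyses used Python 3.11.15, scipy 1.17.1 and biopython 1.88.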

Additional observations from a re-analysis of the deposited data

How the results depend on the processing

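The kinesin count of 0 higher and 1 lower was kept in number under both other scalings (median shifts under 0.01 on the log2 scale), a pseudocount of 1 CPM, no floor, listed zeros as 0 and the nearer interval bound. It became 2 higher at 1.5-fold, and 0 lower with a floor of 4 CPM, which leaves 36 members and drops Kif11, or at 4-fold. In the last case the pseudocount brings the ratio of Kif11 under 4. With a pseudocount of 1 CPM the log2 ratio of Kif11 was -1.07. Leaving out members with shared words or exons, an alternative chosen after seeing the data, kept 0 and 1.

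Over all genes, 256 higher and 379 lower became 828 and 1042 at 1.5-fold, 55 and 85 at 4-fold, 100 and 162 when the nearer bound of the interval had to pass, 82 and 123 after adding 1 CPM, and 80 and 103 above 4 CPM. Taking listed zeros as 0 gave 686 and 937, and the deposited fold changes without a floor gave 1938 and 2582. The cause was not tested beyond what each setting changes. Per length of the longest transcript, 4 of the 5 highest kinesins in the control library stayed, places moved by up to 7 (Kif23, from 5.01 to 11.7 CPM per kb), and the highest member changed in 3 of 13 subfamilies: to Kif5b, Kif16b and Kif23. No paired analysis was possible because each group has 1 library.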

Other observations

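Some kinesin genes and copies fall outside the naming rule, and none of the 4 with values was 2-fold apart. Cenpe, the kinesin-7 motor of the kinetochore, stood at 102.1 CPM in the control library and 103 CPM in the BPA library, a ratio of 1.01 (0.967 to 1.05). Stard9, a large spindle kinesin, stood at 133 and 132 CPM. The transcribed pseudogene Kif4-ps stood at 16.1 and 19.1 CPM, a ratio of 1.18 (1.07 to 1.31). Kif16bos, a noncoding gene beside Kif16b, stood at 10.6 and 10.4 CPM.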
